A study of Mus musculus with 18 samples.

Results

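The actin cytoskeleton genes described here are 10 genes picked by name out of 22619 in the count table: Actb and Actg1, the cytoplasmic beta and gamma actins; Tmsb4x and Tmsb10, thymosins beta that bind actin monomers; Pfn1, Cfl1, Coro1a and Arpc1b, which load, sever, remodel and branch filaments; Myh9, the heavy chain of non-muscle myosin IIA; and Arhgap18, a GTPase-activating protein that switches off small GTPases. They were chosen after Actb and Tmsb10 had been seen to be higher in DP autonomy than in DP turnover, so all values of the 10 genes in that comparison are a description, with no test. All 10 were found once and passed the filter on low counts in every comparison. The samples were sorted thymocytes of wild-type mouse thymi, grafted for 28 days in every group. DN3 cells are CD4 and CD8 double-negative cells at the stage of T-cell receptor beta rearrangement, and DP cells are the later stage with both CD4 and CD8. The 4 groups were DN3 turnover (4 libraries), DN3 autonomy (5), DP turnover (4) and DP autonomy (5). In thymus grafts, turnover is replacement of thymocytes by incoming progenitors, and autonomy is maintenance of thymocyte production without them. The sources used here give no host genotype, strain, sex or age. Nor do they tell which libraries came from separate animals, so the spread behind each p-value is that between libraries and may be technical.

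Actin monomers assemble into filaments that give lymphocytes their cortex, drive migration through the thymus and build the contact with antigen-presenting cells. Thymosins beta hold monomers in reserve, profilin hands them to growing ends, the Arp2/3 complex starts branches, and cofilin takes old filaments apart. Myosin II pulls on filaments, and small GTPases, which GTPase-activating proteins switch off, set where this happens. A cofactor of the transcription factor SRF is itself held by actin monomers, and SRF drives actin genes through a DNA element called the CArG box.

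Total counts ran from 5032273 to 24191044 per library. Most stage markers went with the labels. Il2ra, the IL-2 receptor chain of DN3 cells, had mean levels of 417 and 393 CPM in DN3 turnover and autonomy and 7.71 and 29.7 CPM in DP, and Cd4 had 34.7 and 3.79 CPM in DN3 and 781 and 803 CPM in DP. Of the 7 DN3-stage markers Rag1, also a DP-stage marker, had 110 and 102 CPM in DN3 and 724 and 790 CPM in DP, and Cd3e had 213 and 169 CPM in DN3 and 225 and 244 CPM in DP. CPM are counts brought to the same library size with TMM factors. The exception was DN3 turnover library RP1141B, in which 7 DP-stage markers summed to 2533 CPM, against 851 to 1115 CPM in the other 3 libraries of its group, so DN3 values of the 10 genes that turn sign or move by over 1.5-fold without it are given both ways. The turnover libraries are numbered RP1140A, RP1140B, RP1141A and RP1141B at each stage, and the sources used here do not say whether A and B come from 1 animal.

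The pairs of actins and of thymosins are close copies, which matters for how their reads are told apart. To show where the actin genes differ, the first 90 coding bases of each are given 5′ to 3′ from the GENCODE M21 transcripts, with the 16 bases that differ in capitals.
Actb: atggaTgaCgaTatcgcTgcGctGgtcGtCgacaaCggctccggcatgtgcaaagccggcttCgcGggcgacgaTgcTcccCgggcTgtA
Actg1: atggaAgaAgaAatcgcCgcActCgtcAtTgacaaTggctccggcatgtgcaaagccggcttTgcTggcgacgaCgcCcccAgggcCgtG
Over the 1128 coding bases of each gene, 1000 (88.7%) were identical, with a longest shared run of 62 bases. The whole coding sequences of the thymosins, 135 bases each, differ at 40 positions, again in capitals.
Tmsb4x: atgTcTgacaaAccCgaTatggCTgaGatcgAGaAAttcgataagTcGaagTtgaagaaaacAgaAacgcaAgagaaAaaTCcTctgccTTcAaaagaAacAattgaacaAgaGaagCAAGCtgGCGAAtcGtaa
Tmsb10: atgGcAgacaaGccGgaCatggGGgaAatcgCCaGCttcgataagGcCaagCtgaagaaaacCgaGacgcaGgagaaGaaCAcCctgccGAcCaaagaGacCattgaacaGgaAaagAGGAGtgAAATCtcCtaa
These were 70.4% identical, with no shared run longer than 10 bases. The sources used here do not say how reads matching several genes were counted. Levels within a pair can therefore be affected by shared stretches, which in the coding bases were longer for the actins. Bases outside the coding sequences, and other copies in the genome, were not compared.

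The genes lie on GRCm38 as follows, each counted over the exons of a protein-coding gene. Actb spans chr5:142903115-142906754 and Actg1 chr11:120345690-120348542, both on the minus strand. Tmsb4x lies on the X chromosome at 167207093 to 167209315 and Tmsb10 at chr6:72957347-72958748, both on the minus strand. Pfn1 lies at chr11:70651850-70654644 (minus), Cfl1 at chr19:5490455-5495201 (plus), Coro1a at chr7:126699773-126707787 (minus) and Arpc1b at chr5:145114215-145130705 (plus). Myh9 lies at chr15:77760587-77842175 (minus) and Arhgap18 at chr10:26753421-26918648 (plus). Exons of Arpc1b overlap those of Pdap1 on the opposite strand over 931 bases, 18.2% of its exon length, and exons of Cfl1 overlap Snx32 over 468 bases, 16.5%. The sources used here do not say whether strand was used in counting, so levels of Arpc1b and Cfl1 can hold reads of those neighbours.

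Beta-actin dominated the group at both stages. Actb took 0.562% ± 0.054 (SD, n = 4) of all counts in DN3 turnover, 0.695% ± 0.081 (n = 5) in DN3 autonomy, 0.919% ± 0.039 (n = 4) in DP turnover and 1.26% ± 0.094 (n = 5) in DP autonomy. The 10 genes together took 1.16%, 1.31%, 1.60% and 2.16% in the same order. To compare genes, CPM were divided by the kb of all annotated exons of each gene. That length can exceed the transcript expressed, so the order of genes on this scale is approximate. In CPM per kb of exon, Actb had mean levels of 2103, 2909, 3139 and 4500.2, and its libraries did not overlap those of the next gene in any group.

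Below Actb, the order of levels per kb differed between stages. In both DN3 groups it ran Cfl1, Pfn1, Coro1a, Tmsb4x, and each of these overlapped its lower neighbour, except Coro1a and Tmsb4x in autonomy. In DP turnover Coro1a (703 CPM per kb) came next after Actb, then Cfl1 (574 CPM per kb) and Tmsb4x (452 CPM per kb). In DP autonomy Tmsb4x stood next after Actb with 1043 ± 404 CPM per kb (SD, n = 5), overlapping Cfl1 with 803 ± 58.8 CPM per kb. Actg1 stood at 91.4 to 149 CPM per kb over the 4 groups and Arpc1b at 99.5 to 151 CPM per kb. Myh9 (3.68 to 7.52 CPM per kb) and Arhgap18 (0.719 to 6.48 CPM per kb) were the lowest pair in every group and overlapped each other in both DN3 groups.

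**Figure D1:**
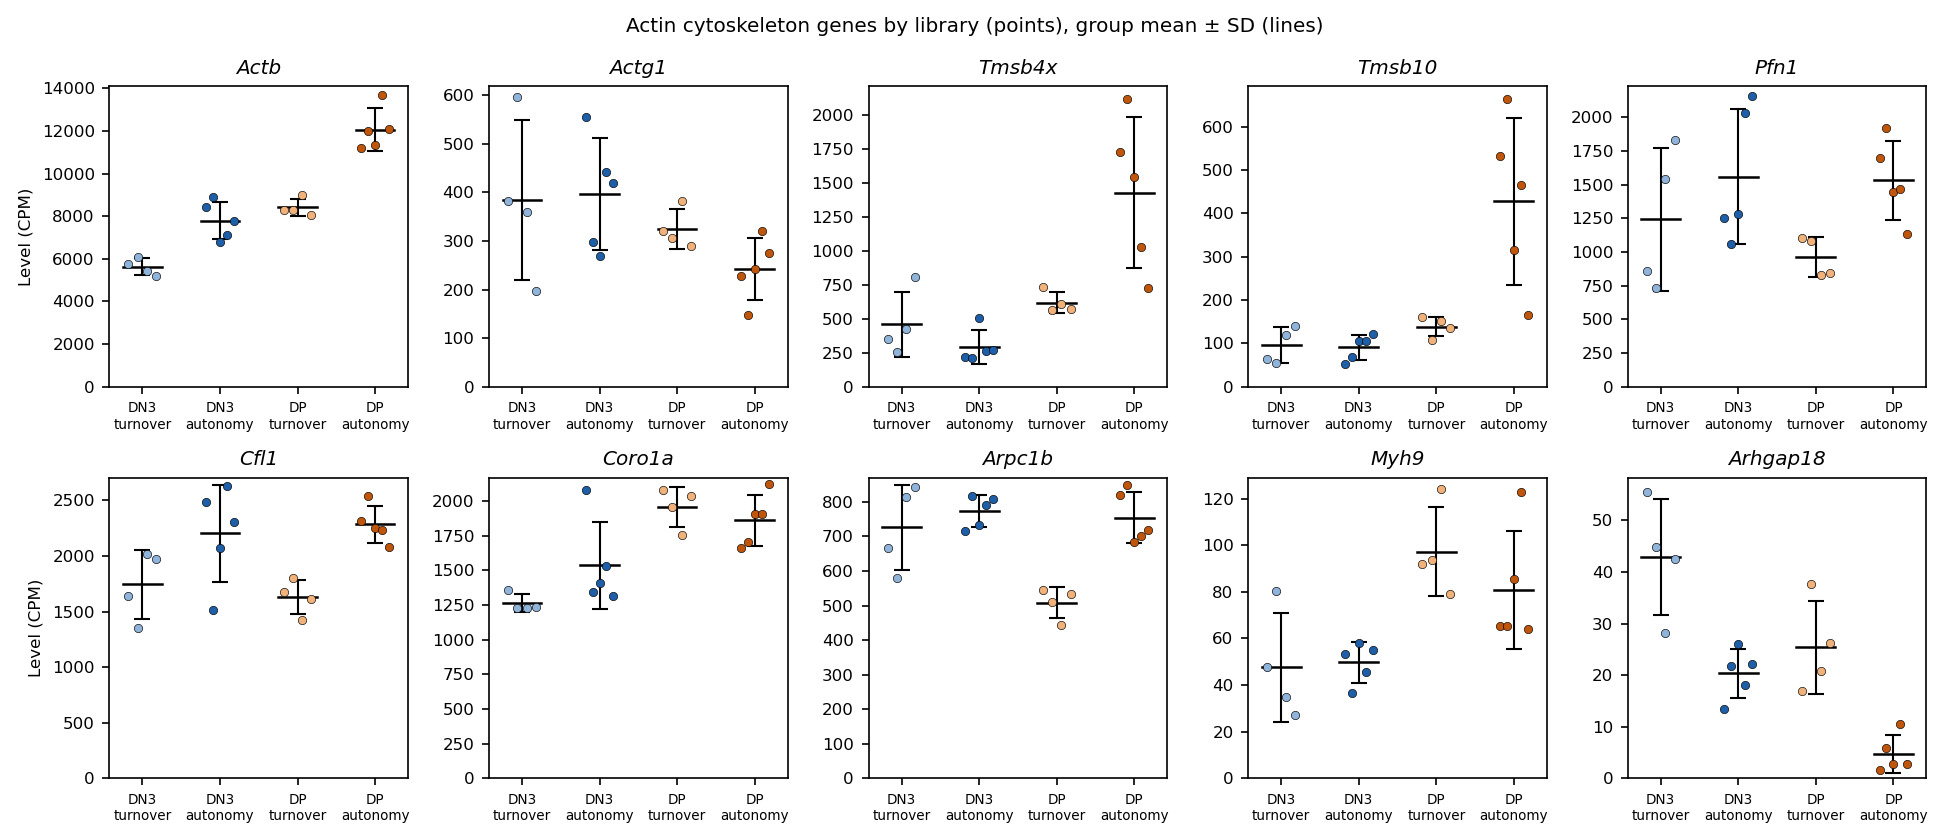
Level of each of the 10 genes in CPM (vertical axis, from 0, its own range for each gene) by group, with 1 point per library and lines at the group mean ± SD. Actb is highest in the 5 DP autonomy libraries, at 11179 CPM or more, while Arhgap18 is lowest there, at 10.6 CPM or less.

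The first comparison asked how the 10 genes differ between DN3 cells of autonomous thymi and of thymi in turnover. The stated reason for the choice lies in the DP libraries. The choice was still made with earlier results of these data known, so the DN3 p-values may not be free of it. Actb was higher in autonomy and Arhgap18 lower, and the other 8 did not pass the test. In all, 1 of 10 was called higher, where 6.53% of the 10766 genes tested were, and 1 of 10 lower, where 8.35% were. The libraries of the groups did not overlap for 1 of 10 in the higher direction (8.29% of all genes) and 1 of 10 in the lower direction (10.1% of all genes). The median log2 change of the 10 was 0.07, against −0.05 over all genes tested. Log2 changes here are autonomy over turnover.

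Actb, the building block itself, had levels of 5781, 6088, 5452 and 5209 CPM in DN3 turnover. In DN3 autonomy it had 8413, 8908, 6771, 7118 and 7760.2 CPM. Every autonomy library lay above every turnover library. The log2 change was 0.46 (SE 0.14, edgeR adjusted p = 0.0451), from 5633 ± 383 to 7794 ± 885 CPM. The call was close to the threshold: it held in 1 of 9 fits that left out a library, the one without autonomy library RP1135 (0.0289). It was lost in the other 8, with adjusted p up to 0.104 without turnover library RP1140A, and the log2 change stayed between 0.41 and 0.51. It was also lost with the A and B libraries of a number summed (0.161) and with no filter on low counts (0.108). In the authors' deposited table the log2 change was 0.47, with an adjusted p of 0.00687.

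Arhgap18, the GTPase-activating protein, had levels of 55.6, 44.9, 28.2 and 42.6 CPM in DN3 turnover. In DN3 autonomy the levels were 13.5, 21.8, 26.1, 18.1 and 22.1 CPM. All autonomy libraries lay below the lowest turnover library, RP1141A. The log2 change was −1.08 (SE 0.25, edgeR adjusted p = 0.0134), a 2.12-fold lower level. Without turnover library RP1140A it was −0.93 with an adjusted p of 0.0571, and the call held in the other 8 fits. It was also lost with A and B libraries summed (0.0588) and in the fit of all 18 libraries (0.109), with log2 changes of −1.09 and −1.08. In the authors' deposited table the log2 change was −1.05, with an adjusted p of 0.00126.

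The monomer-binding thymosins were not called in DN3 cells. Tmsb4x had levels of 352, 259.6, 426 and 805 CPM in DN3 turnover and 217, 209, 510.4, 261 and 273 CPM in DN3 autonomy. The highest turnover value is that of RP1141B, the library with DP-stage transcripts, and the highest autonomy value is that of RP1135. The log2 change of −0.66 (SE 0.32, edgeR adjusted p = 0.185) was −0.24 (0.587) without RP1141B and −0.95 (0.0429) without RP1135. Tmsb10 had 55.8 to 141 CPM in turnover and 53.5 to 122 CPM in autonomy, with a log2 change of −0.07 (SE 0.30) and of 0.18 without RP1141B.

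The remaining genes overlapped between the DN3 groups. Pfn1, profilin, ranged widely within each group, from 733 to 1831 CPM in turnover and from 1060.0 to 2158 CPM in autonomy, with a log2 change of 0.31 (SE 0.29), or 0.56 without RP1141B. Cfl1, cofilin, had a log2 change of 0.32 (SE 0.18) and Coro1a, the coronin of leukocytes, 0.27 (SE 0.15). Arpc1b, a subunit of the Arp2/3 complex, Myh9 and Actg1 had log2 changes of 0.08, 0.05 and 0.03, and of 0.16, −0.14 and −0.18 without RP1141B. Their signs turned when single libraries were left out, as did that of Tmsb10. Coro1a was nearly constant in DN3 turnover at 1229, 1229 and 1234 CPM, with 1361 CPM in RP1140A.

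Of 7 lists of markers of other cells, 4 had lower sums in DN3 autonomy with no overlap between the groups. The 9 macrophage markers summed to 22.8 to 39.1 CPM in DN3 turnover and 6.05 to 18 CPM in DN3 autonomy, and the 8 dendritic cell markers to 13.1 to 30.4 and 2.52 to 10.8 CPM. The 7 thymic epithelial markers summed to 97.9 to 127 CPM in turnover and 36.9 to 94.3 CPM in autonomy, and the 10 markers of fibroblasts, endothelium and smooth muscle to 84.8 to 105 and 44.8 to 67.5 CPM. In turnover most of each of these sums came from 1 gene, with mean levels in turnover and autonomy of 26.3 and 4.22 CPM for Lyz2, 19.1 and 4.92 CPM for H2-Ab1, 101 and 42.7 CPM for Epcam and 93.2 and 53.2 CPM for Pecam1. Others did not follow, as Cd68 of the macrophage list with 3.57 and 4.97 CPM and Ccl25 of the epithelial list with 9.97 and 10.5 CPM. Adgre1 and C1qc were at 0 in every DN3 turnover library. The B-cell, platelet and erythroid sums overlapped between the DN3 groups. The part of such cells in the Arhgap18 level and in the list genes given below was not tested.

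In DP cells, the comparison by which the set was chosen, the genes that bind or turn over monomers stood higher in autonomy with Actb, while Actg1, Coro1a and Myh9 did not. Past the threshold of the test were 6 of 10 in the higher direction, where 0.861% of the 10339 genes tested were, and 1 of 10 in the lower direction, where 0.861% were as well. The libraries did not overlap for 5 of 10 in the higher direction (4.25% of all genes) and 1 of 10 in the lower direction (3.87% of all genes). Nothing is read from these counts, since the selection used this contrast. Without turnover library RP1140B, RP1141A or RP1141B, or autonomy library RP1133, 1 of the 10 was past the threshold. Without autonomy library RP1135 it was 3 and without RP1136 it was 4. The number of all genes past the threshold also moved widely between such fits, as given in the closing section. Nothing is read from these counts of the 10 genes either.

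Actb had levels of 8275, 8299, 8991 and 8075 CPM in DP turnover. In DP autonomy it had 11179, 11991, 11327, 13679.6 and 12103 CPM. Every autonomy library lay above every turnover library, and the log2 change was 0.50 (SE 0.06). Actg1, the other cytoplasmic actin, had 321, 307, 382 and 289 CPM in turnover against 229, 148, 242, 319.8 and 276 CPM in autonomy. Its libraries overlapped, and its log2 change was −0.44 (SE 0.18).

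Tmsb10 had levels of 161, 108, 151 and 136 CPM in DP turnover and 532, 663, 315, 465 and 167 CPM in DP autonomy. The autonomy libraries spread widely, and RP1138 lay just above the highest turnover library. The log2 change was 1.61 (SE 0.31), a 3.05-fold higher level. Tmsb4x followed the same libraries, with 737, 563, 607 and 573 CPM in turnover and 1729, 2118, 1544, 1030.0 and 730.3 CPM in autonomy. Here RP1138 fell inside the turnover range, and the log2 change was 1.19 (SE 0.25).

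The filament regulators were less spread. Pfn1 had 1104, 1082, 827 and 847 CPM in DP turnover and 1696, 1917, 1447, 1465 and 1135 CPM in DP autonomy (log2 0.65, SE 0.15). Cfl1 had 1678, 1804, 1428 and 1616 CPM against 2316, 2539, 2254, 2236 and 2077 CPM (log2 0.47, SE 0.09). Arpc1b had 546, 511, 444 and 534 CPM against 820.0, 849, 685, 700.0 and 719 CPM (log2 0.55, SE 0.11). None of these 3 overlapped between groups, with RP1138 the lowest autonomy library for Pfn1 and Cfl1. Coro1a, with 1755 to 2077 CPM in turnover and 1662 to 2122 CPM in autonomy, overlapped (log2 −0.09, SE 0.09). Myh9 overlapped too, with 79.1 to 124 CPM against 64.2 to 123 CPM (log2 −0.29, SE 0.23).

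Arhgap18 was the one gene of the set that stood lower in DP autonomy with no overlap. It had 16.9, 37.6, 20.8 and 26.1 CPM in DP turnover and 1.70, 5.93, 2.81, 10.6 and 2.70 CPM in DP autonomy. The autonomy values rest on 9, 56, 27, 220 and 18 reads, so the lowest of them are imprecise. The log2 change was −2.42 (SE 0.54), a 5.35-fold lower level.

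**Figure D2:**
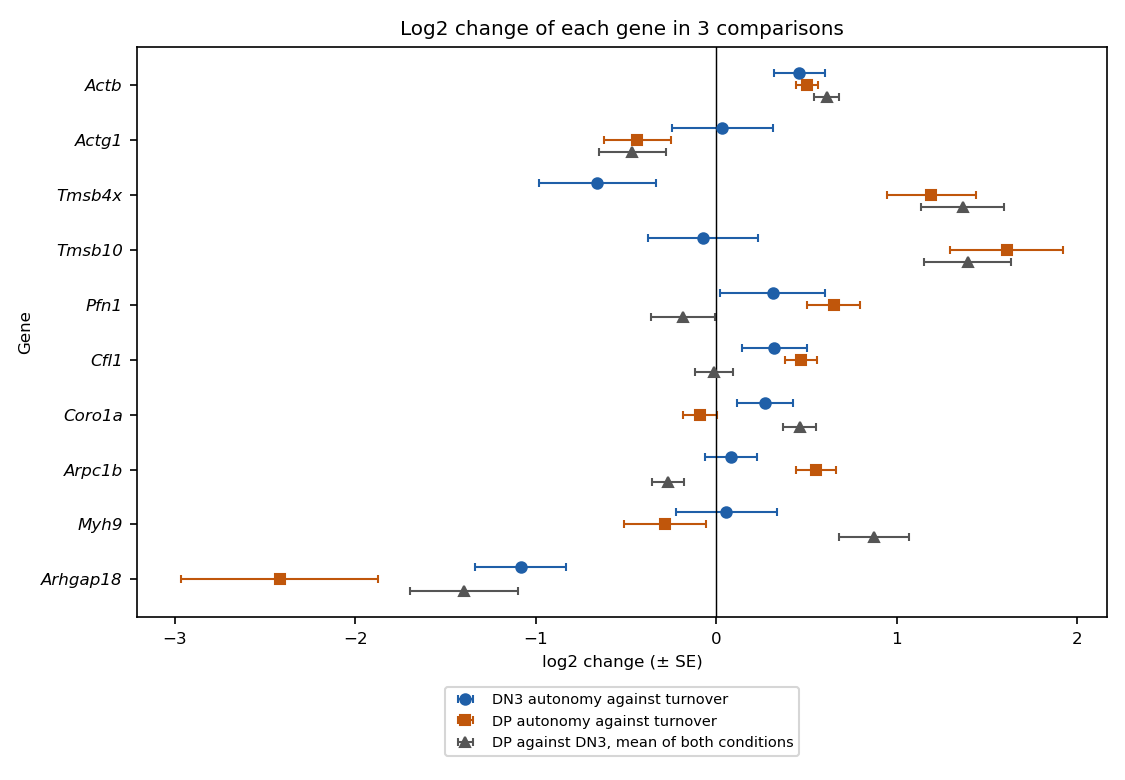
Log2 change (horizontal axis) of each of the 10 genes (vertical axis) with bars of ± 1 SE from the edgeR fits: autonomy over turnover in DN3 (blue circles) and in DP (orange squares), and DP over DN3 averaged over both conditions (grey triangles). Actb lies right of 0 in all 3 and Arhgap18 left of 0 in all 3. Tmsb4x lies at −0.66 in DN3 and 1.19 in DP.

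Among markers of other cells, those of macrophages had their highest sums in the DP libraries with the highest thymosin levels. The 9 macrophage markers summed to 15.9, 4.28, 35.5 and 7.78 CPM in DP turnover and to 143, 113, 49.5, 71.6 and 20.6 CPM in DP autonomy. RP1138, the library with the lowest Tmsb4x and Tmsb10 in DP autonomy, also had the lowest macrophage sum there. Of the 9, C1qa, C1qb and C1qc, subunits of complement C1q, had means of 7.89, 15.7 and 12.5 CPM in DP autonomy, and C1qc, Csf1r and Fcgr3 were at 0 in every DP turnover library. Lyz2 had means of 6.95 CPM in DP turnover, 26.6 CPM in DP autonomy and 26.3 CPM in DN3 turnover. Adgre1, the F4/80 antigen, was at 0 in every DP autonomy library. The 8 dendritic cell markers summed to 7.95 to 30.4 CPM in DP turnover and 7.05 to 227 CPM in DP autonomy. The highest of these sums were in RP1135 (227 CPM) and RP1133 (92.9 CPM), while RP1136 (22.4 CPM) and RP1137 (24.7 CPM) lay within the turnover range. Every list of markers of other cells, the macrophage list included, had sums that overlapped between the DP groups. Markers of platelets, which are rich in Tmsb4x, summed to at most 4.29 CPM in any library. In these bulk samples a change in the share of cells of a type and a change of RNA per cell cannot be told apart, and the part of other cells in the thymosin levels was not tested.

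**Figure D3:**
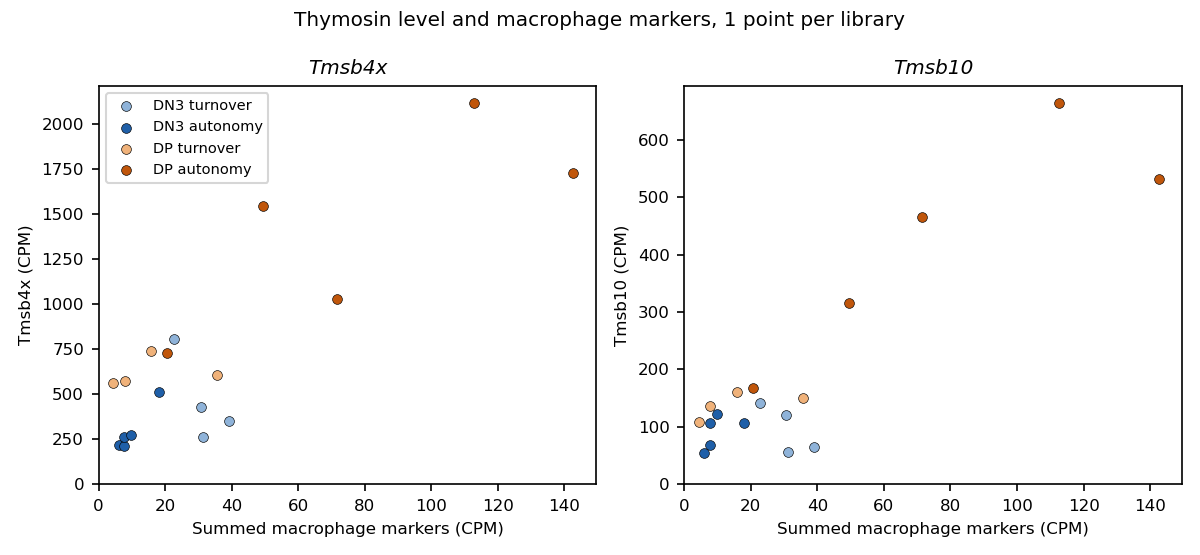
Level of Tmsb4x (left) and Tmsb10 (right) in CPM on the vertical axis against the summed CPM of 9 macrophage markers on the horizontal axis, 1 point per library, coloured by group. The 4 DP autonomy libraries with macrophage sums of 49.5 to 143 CPM hold the 4 highest levels of each thymosin, and the fifth, RP1138, lies near the DP turnover libraries.

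Ratios within a library do not depend on scaling. The log2 ratio of Tmsb10 to Tmsb4x, both per kb, was −2.14 ± 0.31 (SD, n = 4) in DN3 turnover, −1.57 ± 0.47 (n = 5) in DN3 autonomy, −2.06 ± 0.16 (n = 4) in DP turnover and −1.69 ± 0.45 (n = 5) in DP autonomy. Tmsb4x was thus the more abundant thymosin per kb in every library, and the groups of each stage overlapped. The log2 ratio of Actg1 to Actb was −3.97 ± 0.57 in DN3 turnover, −4.33 ± 0.42 in DN3 autonomy, −4.69 ± 0.11 in DP turnover and −5.66 ± 0.38 in DP autonomy. In DP the groups did not overlap, with −4.79 to −4.54 in turnover and −6.33 to −5.41 in autonomy, a description that carries the choice of Actb. In DN3 the difference was 0.58 for the thymosins (exact two-sided permutation p = 0.0873, adjusted over the 2 ratios 0.175) and −0.36 for the actins (exact p = 0.262, adjusted 0.262). The smallest p that 4 against 5 libraries allow is 0.00794.

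**Figure D4:**
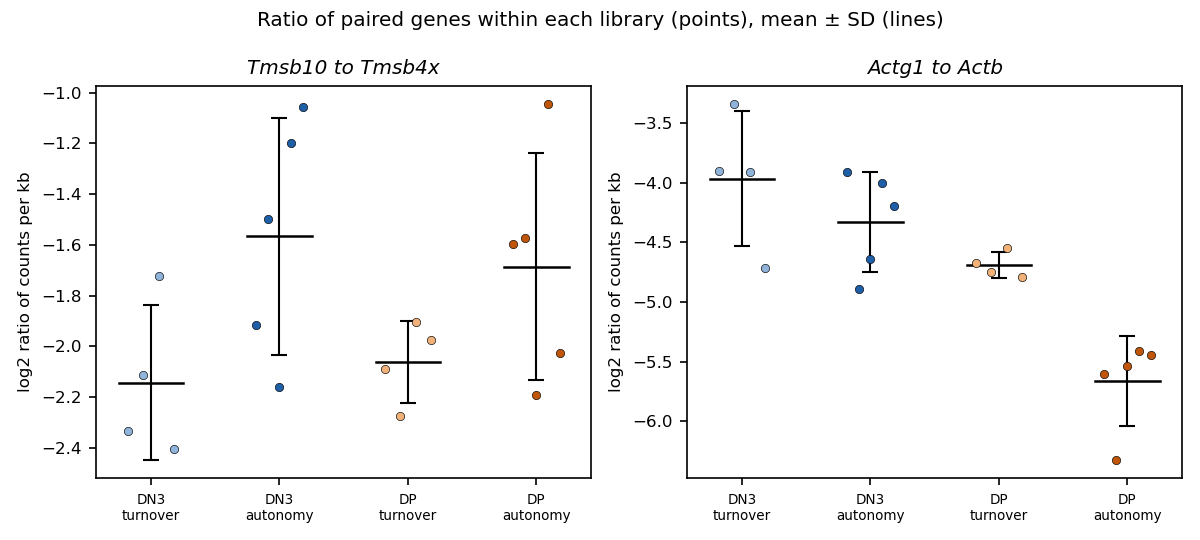
Log2 ratio of counts per kb within each library (vertical axis) of Tmsb10 to Tmsb4x (left) and of Actg1 to Actb (right), by group, with 1 point per library and lines at the mean ± SD. For the actins the 5 DP autonomy libraries, at −5.41 or less, lie below the DP turnover libraries, at −4.79 or more.

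The next comparison set DP against DN3 cells, averaged with equal weight over turnover and autonomy in a fit of all 18 libraries. That fit took the libraries as independent, although DN3 and DP libraries share numbers and may come from the same thymus. The average holds the DP autonomy libraries by which the set was chosen, so the values of the 10 genes are a description and carry no p. Past the threshold were Actb, both thymosins, Coro1a and Myh9 in the direction of DP, and Arhgap18, Arpc1b and Actg1 in that of DN3. That is 5 of 10 higher, where 25.7% of the 11521 genes tested were, and 3 of 10 lower, where 28.6% were. Nothing is read from these counts, since the average holds the libraries of the choice. The median log2 change of the 10 was 0.22, against −0.02 over all genes. All 10 overlapped between the 9 DN3 and the 9 DP libraries when conditions were pooled. The share of all genes that overlapped in this way was not counted, so nothing is read from it.

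Actb had 5209 to 8908 CPM in DN3 (median 6771) and 8075 to 13679.6 CPM in DP (median 11179). Within each condition the stages did not overlap, and the averaged log2 change was 0.61 (SE 0.07). The log2 change was 0.59 in turnover and 0.64 in autonomy. Coro1a, needed for T-cell migration and survival, was higher by log2 0.46 (SE 0.09), with 0.64 in turnover and 0.28 in autonomy. Myh9 had 27 to 80.4 CPM in DN3 (median 47.7) and 64.2 to 124 CPM in DP (median 85.4), a log2 change of 0.87 (SE 0.19).

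Tmsb4x had 209 to 805 CPM in DN3 (median 273) and 563 to 2118 CPM in DP (median 737), with a log2 change of 1.36 (SE 0.23). Tmsb10 had 53.5 to 141 CPM (median 106) and 108 to 663 CPM (median 167), with a log2 change of 1.39 (SE 0.24). The thymosins were the genes of the set whose stage change differed most in size between conditions. Tmsb4x had log2 0.44 (SE 0.34) in turnover and 2.29 (SE 0.32) in autonomy, and Tmsb10 had 0.55 (SE 0.35) and 2.24 (SE 0.33). In turnover the stages overlapped for both thymosins, and in autonomy for neither. That difference between conditions includes the contrast used for the choice, so it has no test here.

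Arhgap18 had 13.5 to 55.6 CPM in DN3 (median 26.1) and 1.70 to 37.6 CPM in DP (median 10.6), a log2 change of −1.40 (SE 0.30). Arpc1b was lower in DP by a log2 change of −0.27 (SE 0.09). It was no longer past the threshold without DN3 turnover library RP1141B or DN3 autonomy library RP1138, or with A and B libraries summed. By condition its log2 change was −0.50 in turnover and −0.03 in autonomy. Actg1 had a log2 change of −0.47 (SE 0.19), past the threshold in 6 of 18 fits leaving out a library and not with A and B libraries summed. The 6 fits are those without DN3 turnover library RP1141B, DN3 autonomy libraries RP1134 and RP1135, DP turnover library RP1141A and DP autonomy libraries RP1137 and RP1138. Pfn1 (log2 −0.18, SE 0.18) and Cfl1 (−0.01, SE 0.10) were not past the threshold.

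Other genes of the actin system were read from 8 lists by role, 154 genes of which 153 were in the table. In DN3 cells 8 of 135 tested were higher in autonomy (5.93%, against 6.53% of all genes) and 18 lower (13.3%, against 8.35%), with a median log2 change of −0.10, against −0.05 over all genes. Dock10, an activator of Cdc42 and Rac, fell from 302 ± 54.5 to 137 ± 39.4 CPM (log2 −1.15, SE 0.21, edgeR adjusted p = 0.00377). Arhgap45, a GTPase-activating protein of blood cells, fell from 435 to 202 CPM (log2 −1.12, SE 0.17). Arhgap19, a GTPase-activating protein of lymphocyte division, rose from 33.2 to 61.2 CPM (log2 0.87, SE 0.19), and Cdc42 itself from 434 to 581 CPM (log2 0.41, SE 0.13). Over all lists, 3 were higher and 10 lower without turnover library RP1140A, 3 and 11 without autonomy library RP1137, 4 higher without turnover library RP1141A or autonomy library RP1138, and 5 higher without autonomy library RP1133.

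Among genes of other roles, Scin and Myh10 had the widest called changes in DN3 autonomy. Scin, scinderin, which severs filaments in response to calcium, fell from 124 ± 27.6 to 5.42 ± 4.25 CPM (log2 −4.52, SE 0.46, edgeR adjusted p = 0.00019). Gmfg, which removes Arp2/3 branches, fell from 317 to 144 CPM (log2 −1.14), and Capza1, a subunit of capping protein, rose from 326 to 490 CPM (log2 0.57). Myh10, the heavy chain of non-muscle myosin IIB, rose from 3.29 ± 0.42 to 28.7 ± 7.28 CPM (log2 3.12, SE 0.28, edgeR adjusted p = 8.94e-05), 1 of 14 in its list, while its paralog Myh9 was at 0.05. Of 10 formins and Ena/VASP genes 1 rose, Diaph3 (log2 1.21), and 0 fell.

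Among 20 bundling and stabilising proteins 2 rose, the cross-linkers Flna (log2 0.61) and Actn4 (0.45), and 2 fell, Cnn3 (−1.04) and Lsp1. Lsp1, an actin-binding protein of leukocytes, had log2 −2.47 with turnover library RP1141B and −1.37 without it. Among 17 membrane linkers and adhesion adaptors 1 rose, Rdx, which ties filaments to the membrane (204.8 to 342 CPM, log2 0.73, SE 0.15), and 3 fell, among them Zyx, a focal adhesion protein (log2 −1.25). Of 21 genes of the Arp2/3 complex and its activators edgeR called 0, with 4 at an unadjusted p under 0.05 and 0 called by DESeq2. Of the 5 genes of the list of SRF and its cofactors edgeR called 0, with 1 at an unadjusted p under 0.05 and 1 called by DESeq2. The unadjusted and DESeq2 counts of these lists have no share of all genes beside them, so nothing is read from them. Diaph3, Capza1, Flna, Actn4, Cdc42 and Zyx each lost the call without RP1140A (adjusted p 0.0511 to 0.137) and without RP1137 (0.0508 to 0.11). Without RP1138 or RP1141A all of these but Capza1 lost it, and without RP1141B Flna, Actn4, Cdc42 and Zyx did. Actn4 and Cdc42 also lost it without RP1140B or RP1133, Zyx without RP1140B, Flna without RP1133, and Flna and Actn4 without RP1134. Scin, Gmfg, Lsp1, Cnn3, Dock10, Arhgap45, Myh10, Rdx and Arhgap19 kept the call in all 9 fits.

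In DP cells 1 of the 135 list genes tested was called between autonomy and turnover, in the higher direction (0.741%, against 0.861% of all genes). It was Arhgdib, a GDP-dissociation inhibitor of blood cells, at 1647 ± 134 CPM in turnover and 2514 ± 313 CPM in autonomy (log2 0.60, SE 0.10, edgeR adjusted p = 0.0157). Leaving out DP turnover library RP1140B or RP1141B ended the call, with adjusted p up to 0.0535. At an unadjusted p under 0.05 there were 28 of 135, and DESeq2 called 11. No share of all genes is given beside these counts, so nothing is read from them. The median log2 change was 0.05 over all lists and 0.26 for the 20 monomer-binding, severing and capping genes, against −0.02 over all genes.

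Between stages the lists leaned towards DP. Of 141 tested, 67 were higher in DP (47.5%, against 25.7% of all genes) and 15 lower (10.6%, against 28.6%), with a median log2 change of 0.46. Arhgap4 rose from 62.9 ± 22.6 to 376 ± 36.8 CPM (log2 2.59, SE 0.12, edgeR adjusted p = 2.95e-12) and Dock2, the Rac activator of lymphocyte migration, from 95.4 to 392 CPM (log2 2.03, SE 0.14). Arhgap9 fell by a log2 change of −0.94 and Arhgdia by −0.41. The counts over all lists ran from 64 to 69 higher and from 12 to 15 lower as each of the 18 libraries was left out.

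Myosins had 7 higher and 0 lower of 14, with Myo1f, a class I myosin of leukocytes, at 4.11 to 40.7 CPM (log2 3.41, SE 0.47) and Myo1c at log2 1.49. Membrane linkers had 9 higher and 0 lower of 18, led by Pip4k2a (log2 2.64) and the integrin chain Itgb2 (2.15). The Arp2/3 list had 11 higher and 3 lower of 23. Abi1, of the WAVE complex, rose from 110.2 to 259 CPM (log2 1.24, SE 0.11) and Wipf1, the partner of WASP, had log2 1.09, while Dbnl (−0.63) and Cyfip1 (−3.02) were lower. Formins had 4 higher and 1 lower of 11, with Fmnl2 at log2 4.88 and Diaph1 at 1.67.

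Monomer-binding, severing and capping genes went both ways between stages, with 9 higher and 4 lower of 22. Gsn, gelsolin, rose from 14 ± 18 to 205 ± 44.6 CPM (log2 3.997, SE 0.40, edgeR adjusted p = 5.43e-08) and Gmfg by log2 1.44, while Scin, a relative of gelsolin, had log2 −4.93 and Capg −1.62. Capg lost the call in 14 of 18 fits leaving out a library, with adjusted p up to 0.0746. Bundling proteins had 9 higher and 5 lower of 21. Lsp1 rose from 48 to 649 CPM (log2 4.09, SE 0.32) and Flna by log2 1.60, while Tagln2 fell from 278 to 51.4 CPM (log2 −2.38, SE 0.18) and Coro2a had log2 −8.28. Some of the largest changes between stages rest on means near 0, so their sizes are imprecise. Coro2a had 0.221 ± 0.595 CPM and Scin 1.16 ± 2.44 CPM in DP, and Fmnl2 had 1.59 ± 2.95 CPM in DN3. Leaving out 1 library moved some sizes by over 1.5-fold. Without DN3 turnover library RP1141B Fmnl2 was at 6.25 and Gsn at 4.66. Without DP turnover library RP1141A Scin was at −5.80 and Capg at −2.43, without DP autonomy library RP1135 Scin was at −6.32 and Coro2a at −10.04, and without DP autonomy library RP1133 Cyfip1 was at −3.75.

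Srf, the transcription factor that drives actin genes, was low in every group, with a mean of 3.53 CPM in DN3 turnover and 2.85 CPM in DN3 autonomy, and 2.21 and 2.64 CPM in DP. It was not called in any comparison (edgeR adjusted p = 0.71 in DN3, 0.932 in DP and 0.552 between stages). Of its cofactors, Elk4 (log2 0.99) and Mkl1 (0.92), the one held by actin monomers, were higher in DP than in DN3, 2 of the 5 in that list. Of the RefSeq promoter windows on GRCm38.p6, 300 bases each, 12 matched 9 of the 10 genes by symbol, all but Actb. An exact CArG box, read on both strands, was in the window of Actg1 and of none of the other 8 matched genes, and in 1.63% of all 32851 windows.

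**Figure D5:**
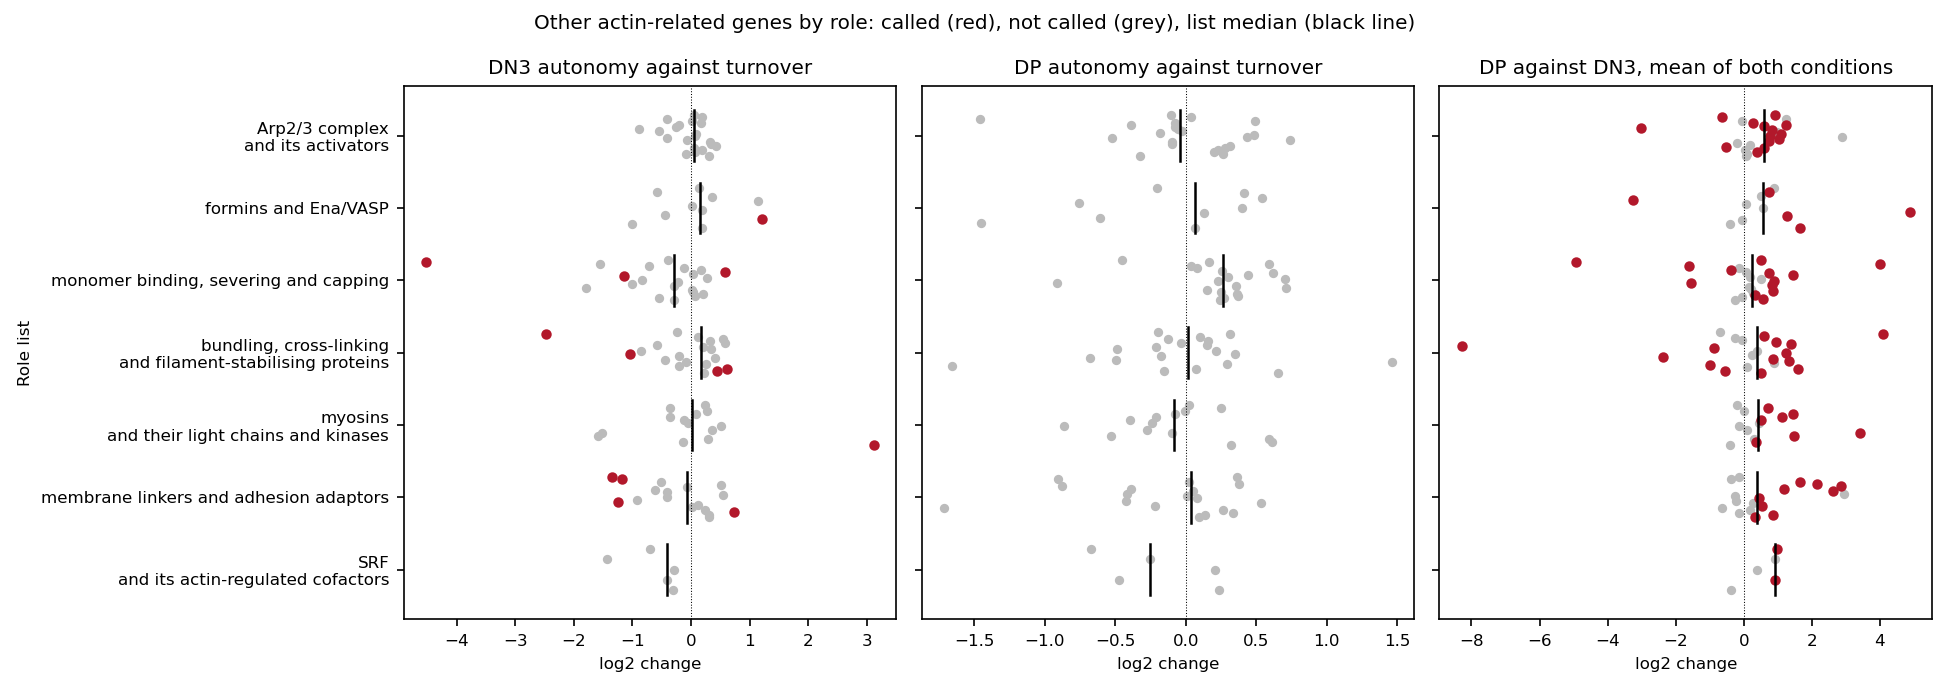
Log2 change (horizontal axis, a different range in each panel) of the other actin-related genes in 7 role lists (vertical axis), 1 point per gene, red where the edgeR test called it and grey where not, with a black line at the list median. In the DN3 panel 0 of 21 genes of the Arp2/3 list are called, in the DP panel no point is red, and between stages 7 of 14 myosin genes are called higher in DP and 0 lower.

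Genes whose profile was most like that of Actb were sought over the 18 libraries, by the root mean square difference of log2(CPM + 1) after each gene was centred on its own mean, among 11458 genes. The nearest were Rbm27 (0.196), Cisd2 (0.2), Senp1 (0.206), Agpat3 (0.224) and Rtn3 (0.229), where Actb itself had a root mean square of 0.404 around its mean. Senp1, a SUMO protease, had mean levels of 78, 110.2, 144 and 180.0 CPM in DN3 turnover, DN3 autonomy, DP turnover and DP autonomy, the order that Actb had. None of the other 9 actin genes was among these 5. Coro1a was the closest of them at place 75 (0.292), followed by Cfl1 at place 682 (0.41), while Actg1 stood at place 4888 (0.734) and Arhgap18 at place 10805 (1.62).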

How the data were processed

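RNA was taken from FACS-sorted cells into lysis buffer, separated on oligo-dT beads and made into Pico Nextera libraries, per the labels. The authors deposited raw read counts per Ensembl gene for 18 libraries. FastQC, HISAT2, featureCounts and DESeq2 on mm10 and GRCm38 are named per the submitters' processing notes, and the sources used here state neither versions nor settings. In the authors' deposited DESeq2 tables (22566 genes each), log2 changes, a test statistic (score), mean normalised signal and p-values are their own, per the file headers. Of the gene identifiers, 22524 matched GENCODE M21, which gave positions and exon lengths.

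Tests on the counts used edgeR 4.0.16 in R 4.3.3: glmQLFit and glmQLFTest (quasi-likelihood, two-sided) after TMM scaling and filterByExpr, with Benjamini-Hochberg adjustment over all genes tested and a threshold of 0.05. "Called" means past it. SE is the log2 change divided by the square root of F. CPM used TMM factors over all 18 libraries. List genes are named by rule: up to 2 per direction and list with the largest called change and at least 10 CPM in the higher group. Srf and the 5 genes nearest to Actb were named in every case. Some list results are left out of the text, while their genes stay in the fits and totals. The members, lists and tests were chosen with earlier results of these data known. On simulated counts, genes changed by log2 1 were recovered at 40% in DN3, 25.5% in DP and 56.8% between stages. Alternatives were DESeq2 1.42.0, its size factors, no filter, a fit of all libraries, summed A and B libraries, a replicate block and leaving out each library.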

Additional observations from a re-analysis of the deposited data

Results flagged for a closer look

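One value stood apart from its group. Coro1a had 1361 CPM in DN3 turnover library RP1140A, where the other 3 libraries lay between 1229 and 1234 CPM, so the gap to the nearest was most of the group's range. The 10 genes in 4 groups make 40 such checks, of which chance alone would single out about 1 in 20. The value is within the DN3 autonomy range of 1316 to 2077 CPM.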

How the results depend on the processing

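Of 370 values of the 10 genes in DN3 and between stages under the other settings, 316 kept their direction and side of the threshold, 30 lost the call, 1 gained it and 23 turned sign; all that turned were small changes that were never called. In DN3 they were Actg1 (−0.011 with A and B libraries summed, −0.18 to 0.32 leaving out a library), Arpc1b (−0.014 to 0.16), Tmsb10 (−0.26 to 0.18) and Myh9 (−0.14 to 0.43). Between stages it was Cfl1, at 0.00106 with DESeq2's size factors, 0.000806 with DESeq2, 0.011 summed and −0.068 to 0.051 leaving out a library. In DN3, 1602 genes were called, 2454 with DESeq2, 1006 in the fit of all 18 libraries, 507 summed and 811 to 1784 leaving out a library; of the 10 genes 2 were called, 1 with no filter, 1 in the fit of all libraries, 0 summed and 0 to 3 leaving out a library. In DP, 178 genes were past the threshold, 854 with DESeq2, 279 in the fit of all libraries, 16 summed and 33 to 252 leaving out a library; of the 10 genes 7 were, 4 in the fit of all libraries, 1 summed and 1 to 6 leaving out a library. Summing leaves 2 turnover libraries per stage; the cause of the other shifts was not tested. Whether a library number shared by DN3 and DP marks samples of the same thymus is not stated in the sources used here. Over 8 pairs, deviations from the group means correlated at 0.01 to 0.049, and 5 pairs correlated best with their own number. These values do not settle it. With the replicate block 5782 genes and 7 of the 10 were called, against 6259 and 8, the one lost being Arpc1b. Depth limits Arhgap18 most, with 9 reads in 1 DP autonomy library.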
